A study of Cardamine sp. SIM-2007 with 7 samples.

Results

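Leaf genomic DNA of Cardamine kokaiensis, a crucifer related to Arabidopsis thaliana, was hybridized to 1 Affymetrix ATH1 array, whose probes were designed on Arabidopsis transcripts. The array was chosen by its title, and it is 1 of the 7 arrays of the study. The DNA came from 100 mg of leaf of plants given no chilling, and 1 µg of it was labelled with biotin. The other 6 arrays were hybridized with RNA from primordia of the first inflorescence, 160 pooled per sample, with 2 samples for each of 3 flower types. Cleistogamous (CL) flowers, which stay closed, followed 28 days of chilling after germination. Intermediate (INT) flowers followed 14 days of chilling after germination. Chasmogamous (CH) flowers, which open, followed 14 days of chilling before germination. DNA and RNA thus differ in tissue as well as in molecule.

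A leaf cell holds one nucleus and many plastids and mitochondria, and each of these organelles carries its own genome in several copies. DNA from leaf is therefore rich in plastid sequence, while each nuclear gene is present in few copies. When DNA of one species is placed on the array of another, a probe set lights up by the number of copies of its target and by how well its probes pair with it. For this reason such a hybridization has been used to mark the Arabidopsis probes that bind a related species, and per the labels the submitters calibrated the RNA arrays with it. The values below are intensities of probe sets, each a group of short probes for one transcript. Their order is an order of intensity, since probes of different sequence bind differently, and not an order of copy number.

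The description covers 22746 probe sets, after 64 control probe sets had been set aside. The platform annotation gave 1 gene to 13513 of them, several genes to 503 and no gene to 8730. Single genes fell into 69 plastid probe sets, 23 mitochondrial ones and 13421 nuclear ones, of which 11933 carry only a locus code. A further 8 probe sets list the same plastid symbol for a pair of gene IDs, as do genes in the repeated part of the plastid genome, and 12 list a mitochondrial gene beside a second gene. The genomic DNA level is log2 of the intensity, and the RNA level is the mean over the 6 RNA arrays of log2(intensity + 28.2). The DNA array has no replicate, so no difference on it was tested and no error can be given for its values. After trimming 2% of probe sets at either end, every array averaged 500, so levels are relative to the rest of the same array. The median probe set had a genomic DNA intensity of 398, and the 6 RNA medians ranged from 260.7 to 301.7.

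Control probe sets bracket these values. The 27 probe sets for Bacillus subtilis genes, which have no known target in plant DNA, gave intensities from 28.9 to 385.8 on the DNA array, with a median of 110 (log2 6.79). Their intensity on the DNA array was a median of 2.57 times their mean on the RNA arrays. The 18 probe sets for transcripts of bacteria and phage that are commonly added at hybridization gave 27056 to 744861 on the DNA array, at 16 to 56.6 times their RNA mean. Whether the same amount was added to every array is not given in the sources used here, so no amount of plant DNA was read from them.

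Plastid genes were by far the brightest class on the DNA array, mitochondrial genes came next, and nuclear genes spread around and below the overall median. A probe set is called bright below when its DNA level is at least 2 log2 units, or 4 times, above the median of all probe sets, which held for 4.54% of all of them. By that measure 68 of the 69 plastid probe sets were bright, as were all 8 with a repeated plastid symbol. Among mitochondrial probe sets 17 of 23 were bright, and among those with a second gene 10 of 12. Only 450 of 13421 nuclear probe sets were bright, or 3.35%, and 446 of 8730 without a named gene, or 5.11%. The plastid median lay 7.68 log2 units above the nuclear median, and the mitochondrial median 4.84 above it. Together the 77 plastid probe sets took 35.9% of all intensity on the DNA array, against 2.26% to 3.30% on the 6 RNA arrays. The 35 probe sets that list a mitochondrial gene took 1.93% of intensity on the DNA array, against 0.106% to 0.191% on the RNA arrays.

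**Figure D1:**
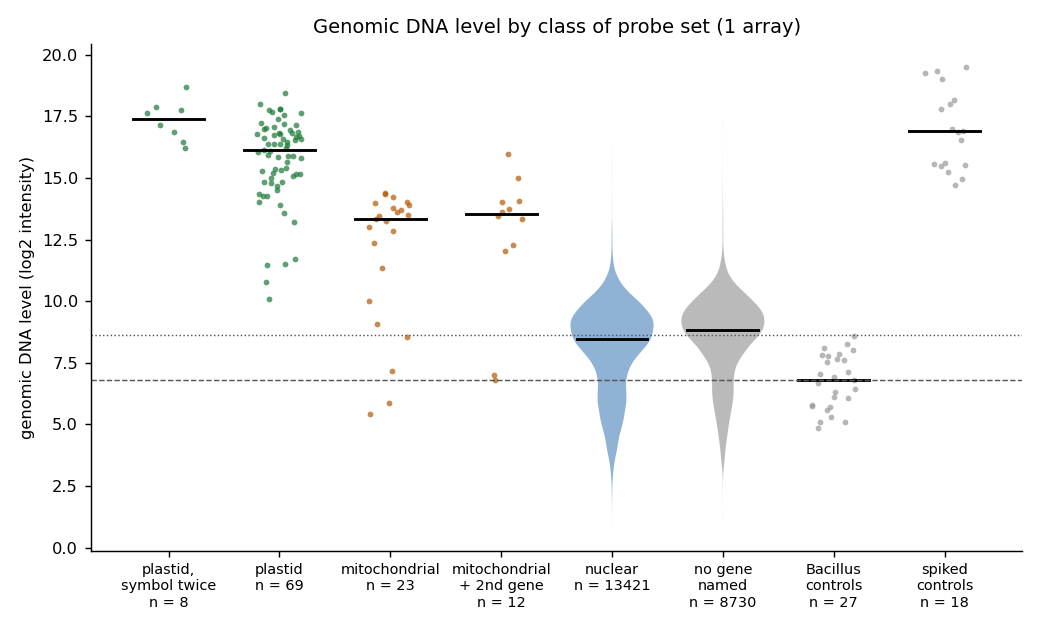
Genomic DNA level (log2 intensity, 1 array) by class of probe set, with points for classes under 200 probe sets, density shapes for the nuclear and unnamed classes, black bars for medians, a dotted line at the median of all probe sets and a dashed line at the median Bacillus control. Plastid probe sets sit around 16.15, mitochondrial ones around 13.32 with a tail to 5.44, and nuclear ones around 8.47 with a lower shoulder near the Bacillus controls.

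The plastid genome encodes core subunits of the photosynthetic complexes and part of its own machinery of transcription and translation. On DNA the medians of its functional groups lay close together, whereas in RNA these medians lay far apart. Single plastid probe sets were spread widely in both, over 8.38 log2 units on DNA and 9.84 in RNA. Over the 8 roles with at least 4 probe sets, median DNA levels ran from 15.88 to 16.62, a span of 0.74, while median RNA levels ran from 9.28 to 13.68, a span of 4.39. The RNA arrays were of bulk primordia, where more cells of one kind and more RNA per cell cannot be told apart. Whether RNA levels of organelle genes on these arrays follow the amounts of their transcripts was not tested.

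Photosystem I, which reduces ferredoxin, had 5 probe sets with a median DNA level of 16.62, from 13.58 for psaJ to 18.01 for psaB. Photosystem II, which splits water, had 15 with a median of 16.58, from 11.52 for psbT to 18.46 for psbF. The reaction-centre gene psbA had a DNA level of 16.32 and psbD one of 17.80. The cytochrome b6f complex, which links the photosystems, had 6 with a median of 15.99, from 11.46 for petL to 17.25 for petN. The 6 probe sets of the chloroplast ATP synthase had a median of 16.13, with atpF lowest at 14.79 and atpB highest at 17.56. These were also the plastid genes of the highest RNA levels as a group, with an RNA median of 13.68. The lowest of these 32 photosynthesis probe sets, at 11.46, was still above the highest Bacillus control at 8.59.

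The NADH dehydrogenase-like complex, which carries electrons in cyclic flow around photosystem I, had 10 probe sets with a median DNA level of 15.88, but the lowest RNA median among the plastid roles, 9.28. Its member ndhJ had a DNA level of 15.91, while its RNA levels were 7.39 and 5.70 in CL, 5.97 and 5.76 in INT, and 6.18 and 6.10 in CH. By contrast petB, a subunit of cytochrome b6f, had a DNA level of 15.94 and RNA levels of 15.58 and 14.85 in CL, 15.38 and 15.04 in INT, and 15.30 and 15.04 in CH. On all 6 RNA arrays ndhJ lay below 8.06, the highest mean level of a Bacillus control in RNA. That is a strict limit, since 46.3% of all probe sets had an RNA level at or below it. These genes were named after their values were seen. The gene rbcL, for the large subunit of the carbon-fixing enzyme Rubisco, had a DNA level of 16.21 and RNA levels of 10.17 and 9.40 in CL, 10.63 and 9.56 in INT, and 9.54 and 9.23 in CH.

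The 15 plastid ribosomal protein probe sets had a median DNA level of 15.90, from 11.72 for rps16 to 17.78 for rpl20. The 4 of the plastid-encoded RNA polymerase ran from 10.76 for rpoA to 16.96 for rpoB, with rpoC1 at 15.40 and rpoC2 at 16.53. The 7 remaining genes had a median of 16.48. Among them the splicing maturase gene matK was lowest at 14.27, and ycf3, needed to assemble photosystem I, was highest at 17.68. The protease subunit clpP lay at 17.38 and accD, a subunit of acetyl-CoA carboxylase, at 16.48.

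A few plastid probe sets stood far below the others on DNA. The 5 under log2 12 were ndhF at 10.09, rpoA at 10.76, petL at 11.46, psbT at 11.52 and rps16 at 11.72, which were singled out after their values were seen. In RNA they did not share one level, as ndhF averaged 5.44 and rps16 7.84, but rpoA averaged 10.76, petL 9.30 and psbT 11.75. Only ndhF missed the bright class. How these probes match the Cardamine plastid genome was not tested.

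The 8 probe sets with a repeated plastid symbol had a median DNA level of 17.41, against 16.15 for the 69 listed once, and ran from 16.22 for ndhB to 18.69 for a probe set of rps12. The others were ycf1 at 16.47, the other probe set of rps12 at 16.87, ycf2 at 17.17, rps7 at 17.65, rpl2 at 17.75 and rpl23 at 17.87. All 8 lay above the median of the genes listed once, and 1 of them, rps12 at an intensity of 424269, was the brightest of all 22746 probe sets. Genes in the inverted repeat of a plastid genome are present in a pair of copies in each genome. The median of the 8 was 1.26 higher than that of the genes listed once, whose SD over 69 probe sets was 1.74, and the difference was not tested.

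**Figure D2:**
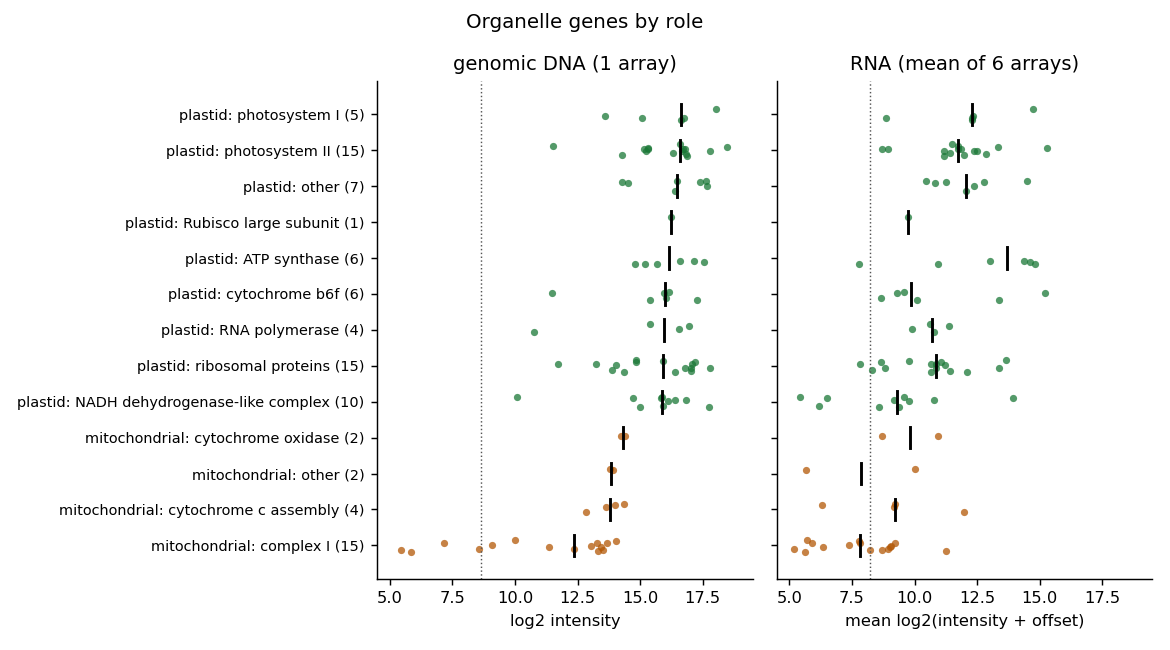
Levels of single organelle probe sets by role on the genomic DNA array (left, log2 intensity) and as the mean of the 6 RNA arrays (right, mean log2(intensity + 28.2)), with plastid genes in green, mitochondrial genes in orange, black bars for role medians and a dotted line at the median of all probe sets. Plastid role medians lie between 15.88 and 16.62 on DNA and, for roles of at least 4 probe sets, between 9.28 and 13.68 in RNA.

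Plastid genes ranked high on DNA and, less uniformly, in RNA. In the brightest 10% of all probe sets were 68 of 69 plastid probe sets on DNA and 46 of 69 in RNA. On the DNA array 64 of 69 plastid probe sets were in the brightest 1% of all probe sets, against 13 of 69 on the RNA scale. None lay below the overall median on DNA, against 5 on the RNA scale. For the 23 mitochondrial probe sets the corresponding counts were 16 in the brightest 1% on DNA against 0 in RNA, and 4 below the median on DNA against 11 in RNA. The trimmed-mean scaling ties each array to its own probe sets, so ranks and not absolute levels are set side by side here.

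Mitochondrial genes encode parts of the respiratory chain and of the apparatus that attaches haem to cytochrome c. The cytochrome oxidase genes had DNA levels of 14.41 for cox1 and 14.23 for cox2. The 4 genes of cytochrome c assembly ran from 12.84 for ccb382 to 14.37 for ccb452. The maturase gene matR had a DNA level of 13.91 but RNA levels between 5.58 and 5.90 on all 6 RNA arrays, under the highest Bacillus control there. The reading frame orfX had a DNA level of 13.78 and an RNA level of 10.01.

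Complex I, the first enzyme of the respiratory chain, had 15 probe sets with a median DNA level of 12.35 and the widest range of any organelle role, 8.61 log2 units. Its highest member was nad9 at 14.04, and nad4 at 13.32, nad4L at 13.50 and nad6 at 13.26 lay near it. The low end was made up mostly of nad1. Its 7 probe sets had DNA levels of 5.44, 5.86, 7.15, 8.56, 11.35, 13.45 and 13.68, so 3 were bright and 2 lay below the Bacillus median of 6.79. Among the 16 mitochondrial probe sets of other genes 14 were bright, and the exceptions were nad7 at 9.07 and nad2 at 10.01. In Arabidopsis the nad1, nad2 and nad5 transcripts are joined from separately transcribed pieces by trans-splicing, with introns between their exons. Which of the nad1 probe sets lie in exons is not given in the annotation used here, so the difference among them was not tested against it.

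The 12 probe sets that pair a mitochondrial gene with a second gene had a median DNA level of 13.54. In 11 of the 12 the second gene is an AT2G07 locus, the part of Arabidopsis chromosome 2 where a nearly complete copy of the mitochondrial genome is known to lie. The digit after AT in a locus code gives the Arabidopsis chromosome. The 2 that list nad1 were again the dimmest, at 6.82 and 7.01, and the other 10 were bright. Where Cardamine carries such a copy was not analysed here.

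Loci of that region that were annotated as nuclear genes of their own were spread widely on DNA, with many at each end. Of the 37 probe sets between AT2G07600 and AT2G07799, 11 were bright, or 29.7%, and 14 were at least 2 log2 units below the overall median, or 37.8%. Of the 1931 other AT2G probe sets, 3.11% were bright and 24.9% were that far below, and over all probe sets the share that far below was 19.2%. The brightest of the 37 was AT2G07732 at 14.92, near the mitochondrial genes, and AT2G07777 was the dimmest at 2.98. The interquartile range was 6.23 among the 37 loci, against 2.67 among the other AT2G loci.

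Nuclear probe sets covered a wide range on DNA, from 0.81 to 16.29, with the middle 50% of them between 6.995 and 9.37. Their spread was still narrower than in RNA. From the 5th to the 95th percentile they spanned 5.75 log2 units on DNA, against 6.80 to 7.27 on the RNA arrays, all without an offset. At or below the median Bacillus control lay 20.4% of all probe sets and 3086 of the 13421 nuclear ones, or 22.99%. With the highest Bacillus control as the limit, the nuclear share was 53.2%, so the share depends on which control probe set is taken as the level of unspecific binding. Nuclear genes that carry a symbol had 17.4% at or below the median control, against 23.7% of those known only by a locus code. Probe sets marked by the maker as shared among transcripts (_s_at) or as open to cross-binding (_x_at) had medians of 7.79 and 8.07, against 8.48 for the plain kind.

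The brightest nuclear probe sets all carried locus codes without a name, as did 11933 of all 13421 nuclear probe sets. AT1G42410 led with a DNA level of 16.29, and its RNA levels lay between 5.13 and 6.71. It was followed by AT1G23650 at 15.70, AT4G16240 at 15.56, AT2G06390 at 15.25 and AT3G23450 at 15.24. Of the 15 brightest, 4 were AT2G07 loci. Of the 48 probe sets at or above log2 16, 37 were plastid genes, 8 had a repeated plastid symbol, 1 was nuclear and 2 had no gene named.

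Among nuclear genes with a symbol the brightest was HTB2, a histone H2B gene, at 12.20. TPI, for the glycolytic enzyme triosephosphate isomerase, followed at 11.93, and it was bright in RNA as well, with levels between 14.12 and 14.44. Next came AtRZ-1c, an RNA-binding zinc-knuckle protein, at 11.87, GRX480, a glutaredoxin, at 11.80, SP1L4, of the SPIRAL1-like microtubule proteins, at 11.73, and UGT85A2, a glycosyltransferase, at 11.70. At the dim end, AT3G29732 had the lowest level of all, 0.81, an intensity of 1.75. Of the 10 dimmest, 9 carried locus codes, a share near that of all nuclear probe sets, 11933 of 13421. The exception was AGL86, a MADS-domain gene, at 2.05. Other named genes at the dim end were MED6, a Mediator subunit, at 2.83, COR27, a cold-regulated gene, at 3.10, and MUTE, which drives stomatal development, at 3.55. All of these, and the 10 dimmest probe sets, lay below the lowest Bacillus control, 4.85. Their levels and order cannot be told from unspecific binding.

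Gene symbols gave 47 nuclear families with at least 5 genes each, holding 591 probe sets. Only the 1488 nuclear probe sets that carry a symbol could enter, so a family may lack many of its members. The family medians on DNA ran from 9.69 to 7.24, a span of 2.45. Of the families, 21 were at or above the median of all probe sets and 26 below it. None had a median at or below the Bacillus median. Among the 591 probe sets 15 were bright, or 2.54%, and 107 were at least 2 log2 units below the overall median, or 18.1%, against 4.54% and 19.2% of all probe sets. Medians of small families rest on few genes, and no family was tested against others.

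The 6 families at the bright end act in RNA, protein repair, chromatin, auxin response and the cytoskeleton. LSM proteins, which act in RNA splicing and decay, had the highest median, 9.69, with LSM6A at 10.12 and LSM6B at 8.44. Methionine sulfoxide reductases, which repair oxidized proteins, had a median of 9.59, from MSRB9 at 7.07 to MSRB3 at 10.62. Histones had a median of 9.54, and here HTB11 was lowest at 7.24 and HTB2 highest at 12.20, although both encode histone H2B. Aux/IAA repressors of the auxin response had a median of 9.42, from IAA29 at 6.45 to IAA20 at 10.21. Pentatricopeptide repeat proteins, which process organelle RNA, had a median of 9.36, from OTP84 at 4.41 to OTP43 at 10.60. Tubulins had a median of 9.30, with all 7 members between 8.31 for TUA1 and 10.09 for TUB6.

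The 6 families with the lowest medians were of several kinds. AGAMOUS-like MADS genes, which include regulators of flowering and of the embryo sac, had 42 probe sets with a median of 7.68. Of these, 19 were at least 2 log2 units below the overall median, or 45.2%, against 19.2% of all probe sets, and the range ran from AGL86 at 2.05 to AGL82 at 9.98. Subtilases, which are serine proteases, had a median of 7.34 over 8 members, with SBT4.13 at 4.01 and SBT3.12 at 9.94. CLE peptides, short signals to receptor kinases, had a median of 7.42, and all 7 members lay below the median of all probe sets. CLE27 was lowest at 5.16, CLE44 highest at 8.03, and CLV3, which limits the shoot stem cells, lay at 7.52. RALF-like peptides, which act in growth signalling, had a median of 7.45, from RALFL33 at 4.62 to RALFL34 at 9.79. Glutamate receptor-like channels had the lowest median, 7.24, with GLR2.9 at 6.20 and GLR2.7 at 9.24. Cation/proton exchangers had a median of 7.83, from CHX21 at 5.59 to chx28 at 10.21.

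Families of special interest in plants lay between these ends. UDP-glycosyltransferases, which add sugars to small molecules, had 47 probe sets with a median of 8.87, of which 5 were bright, or 10.6%, against 4.54% of all probe sets. As many, 5, were at least 2 log2 units below the overall median, against 19.2% of all. The 24 cytochrome P450 probe sets used here were mostly of the CYP71B group. Their median was 8.75, with 0 bright against 4.54% of all, and 6 that far below, or 25%, against 19.2% of all. Expansins, which loosen cell walls, had a median of 8.98, from EXLA1 at 5.30 to EXPA18 at 10.64. WRKY factors, which act in defence, had a median of 9.23, and SWEET sugar transporters one of 8.30. Defensin-like peptides had a median of 8.58, from LCR67 at 4.76 to PDF1.2b at 10.54.

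Nuclear genes for photosynthesis had a DNA median above that of all nuclear probe sets, 9.09 against 8.47, and high levels in RNA. Of their 11 probe sets, 2 lay below the median of all probe sets on DNA. Their median RNA level was 11.54, where all probe sets had medians of 8.64 on DNA and 8.22 in RNA. LHCB4.2, a light-harvesting protein of photosystem II, had a DNA level of 10.79 and RNA levels of 13.61 and 13.68 in CL, 13.99 and 14.02 in INT, and 13.65 and 13.66 in CH. PSAN, a photosystem I subunit, had a DNA level of 8.85 and an RNA level of 13.03. RCA, which activates Rubisco, had a DNA level of 9.01 and an RNA level of 11.42. Of 15 marker genes listed for leaf and flower only 3 were named by the annotation, RCA, UFO and JAG. A DNA sample holds the same nuclear genes whatever its organ, so these genes do not check the label leaf. The floral regulators UFO and JAG had DNA levels of 8.21 and 8.97, close to the overall median.

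**Figure D3:**
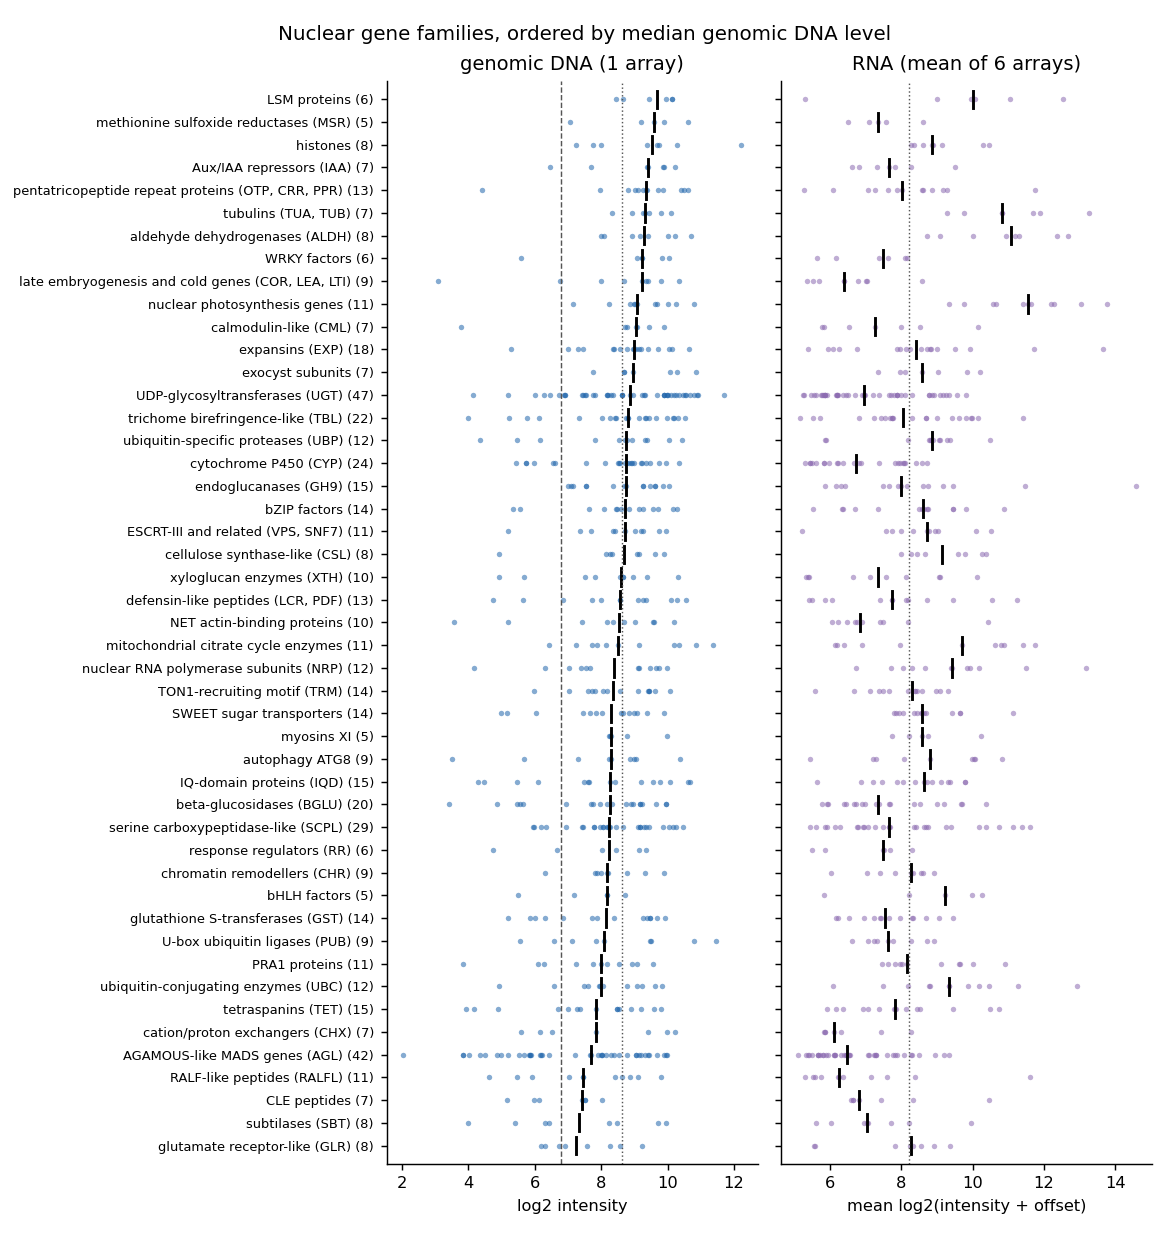
Levels of the 591 probe sets of 47 nuclear families on the genomic DNA array (left, log2 intensity) and as the mean of the 6 RNA arrays (right, mean log2(intensity + 28.2)), with a point for each probe set, a black bar at each family median, dotted lines at the medians of all probe sets and a dashed line at the median Bacillus control. Family medians run from 9.69 for LSM proteins to 7.24 for glutamate receptor-like channels on DNA, and members of one family are spread over several log2 units.

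Probe sets for the same gene often disagreed on DNA. For 150 nuclear genes with several probe sets the median gap between the highest and the lowest was 1.36 log2 units, and for 90 of them, or 60%, it was over 1. The widest gap was 6.73, for AT3G48570, with levels of 3.197 and 9.93. The lower of these lay under every Bacillus control, the lowest of which was 4.85. DNA levels carry no offset, so gaps that reach so low include differences within unspecific binding. Across the 145 genes with exactly a pair of probe sets, the levels of the pair had a correlation of 0.16 on DNA and 0.26 in RNA, given as a description over genes.

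Along the Arabidopsis gene order, the lowest DNA levels came in a few stretches of chromosomes 2, 3 and 4. Locus numbers rise along each chromosome, and bins of 1000 locus numbers with at least 20 probe sets gave 265 bins over 11707 probe sets. Bin medians ran from 6.28 for the bin that starts at AT2G12000 to 9.35 for the one that starts at AT4G31000. The other bins with the lowest medians start at AT3G32000, AT2G11000 and AT4G07000, with medians of 6.396, 6.65 and 6.77, and these 4 were the only bins at or below the median Bacillus control. In Arabidopsis these stretches lie around the centromeres, which are poor in genes and rich in transposons. Their RNA medians were also low, from 5.91 to 6.42. Across the 265 bins the medians on DNA and in RNA had a correlation of 0.69, a description over bins that share the same 7 arrays and neighbouring probe sets.

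Probe sets that were brighter on DNA were also brighter in RNA, but the relation was loose. Over all 22746 probe sets the correlation of the DNA level with the RNA level was 0.28 for CL replicate 1, 0.33 for CL replicate 2, 0.33 and 0.31 for the INT replicates, and 0.28 and 0.32 for the CH replicates. These are descriptions across probe sets, which share the same 7 arrays and the same probes and are not replicates. Per the labels the RNA data were calibrated with this DNA array. Whether that step adds to any relation of DNA and RNA levels given in this report was not tested. Within the nuclear probe sets the correlation with the mean RNA level was 0.29, and within the 69 plastid ones 0.31.

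**Figure D4:**
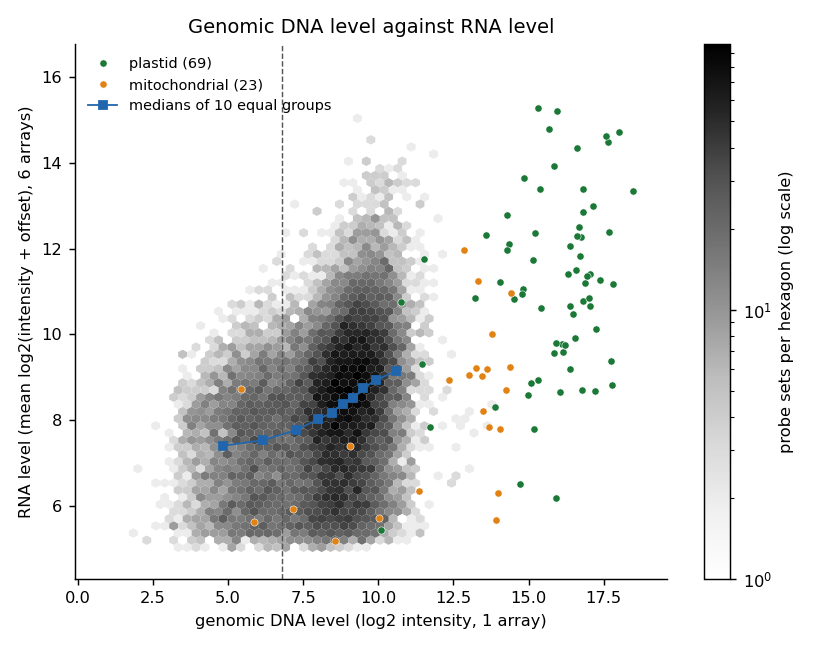
Genomic DNA level (horizontal, log2 intensity, 1 array) against RNA level (vertical, mean log2(intensity + 28.2) over 6 arrays), with grey hexagons for all probe sets other than those of single organelle genes, green points for 69 plastid and orange points for 23 mitochondrial probe sets, blue squares for medians of 10 equal groups and a dashed line at the median Bacillus control. Plastid genes lie far to the right at all heights, and the group medians climb from 7.40 to 9.14 in RNA.

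In 10 equal groups of probe sets ordered by DNA level, the median RNA level climbed through every group, from 7.40 in the lowest to 9.14 in the highest. The share of probe sets above the overall RNA median was 27.5% in the lowest group and 67.6% in the highest. Restricted to probe sets of at least median RNA level, the difference between the highest and the lowest group was 1.05, against 1.75 over all. The medians of the RNA arrays differed most where DNA was dim, while the gaps for single probe sets, given below, changed less. In the lowest group the median RNA levels of the 6 arrays ran from 7.30 in CL replicate 2 to 7.66 in CL replicate 1, a span of 0.36, and in the highest group they ran from 9.14 to 9.23, a span of 0.10.

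Flower types were compared along the DNA level by medians over about 2275 probe sets, which say little of single genes because every array was scaled to the same mean. In the lowest group the medians of the type means were 7.39 in CL, 7.41 in INT and 7.40 in CH, and in the highest group 9.14 in CL, 9.18 in INT and 9.17 in CH. In no group did the type medians span more than 0.064. The median gap between the replicates of a type, taken over single probe sets, was in CL 0.46 in the lowest group and 0.40 in the highest. In INT it was 0.39 in the lowest group and 0.29 in the highest, and in CH 0.42 and 0.38. The median difference between the CL and CH means of a probe set, regardless of sign, was 0.26 in the lowest group and 0.24 in the highest, and no test between types was made.

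**Figure D5:**
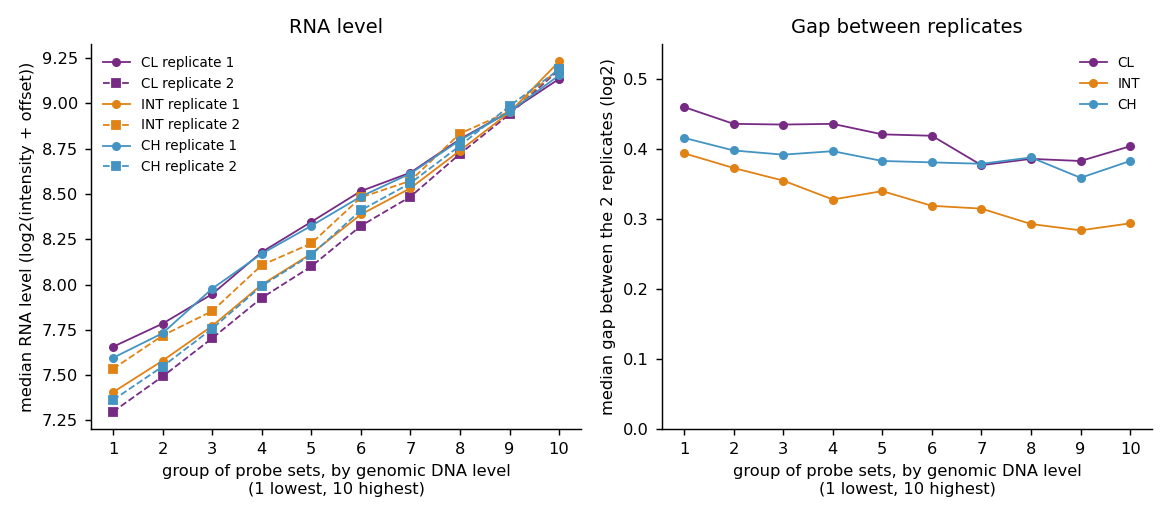
Median RNA level of each of the 6 RNA arrays (left, log2(intensity + 28.2)) and median gap between the replicates of each flower type (right, log2) in 10 equal groups of probe sets ordered by genomic DNA level. All 6 arrays climb, their medians differ by 0.36 in the lowest group and 0.10 in the highest, and the replicate gap is between 0.28 and 0.46 in all groups and types.

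A dim DNA level did not mean that a probe set gave no RNA signal. Of the 4647 probe sets at or below the median Bacillus control on DNA, 1420 had an RNA level above the overall RNA median, or 30.6%, against 54.99% of the other probe sets. In the brightest 10% of RNA levels were 110 of these dim probe sets, or 2.37%, against 11.96% of the others. Conversely, of the 2275 brightest probe sets on DNA, 682 had an RNA level at or below the highest Bacillus control in RNA, or 30.0%, against 46.3% of all probe sets.

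The named genes furthest apart in rank show both directions. cICDH, a cytosolic isocitrate dehydrogenase, had a DNA level of 5.31 and RNA levels of 12.53 and 12.62 in CL, 13.03 and 12.92 in INT, and 12.39 and 12.46 in CH. GAPC2, a cytosolic glyceraldehyde-3-phosphate dehydrogenase of glycolysis, had a DNA level of 6.28 and RNA levels between 12.75 and 13.20. APM1, an aminopeptidase, had 5.55 on DNA and 11.37 in RNA, and BGLU42, a beta-glucosidase, had 3.43 on DNA and 9.67 in RNA. Among genes known by a locus code the largest such difference was that of AT2G44120, with 4.35 on DNA and 12.74 in RNA. Each of these lay below the Bacillus median on DNA while every RNA array gave it a level above the overall RNA median of 8.22.

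In the other direction stood genes with a good DNA signal and an RNA level near the floor of the scale. TBL32, of a family that acetylates wall polysaccharides, had a DNA level of 10.18 and RNA levels between 5.08 and 5.24 on all 6 arrays. UGT73B1, a glycosyltransferase, had 10.67 on DNA and 5.61 in RNA. LEA4-5, a late embryogenesis protein, had 10.33 on DNA and 5.53 in RNA. AGL21, a MADS-domain gene described in roots, had 9.69 on DNA and 5.12 in RNA. These 4 genes had a DNA level above every Bacillus control and an RNA level below 6 on every array.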

How the data were processed

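The values used were the deposited intensity values of 7 Affymetrix ATH1 arrays, linear and already summarized per probe set. Per the labels, DNA was labelled with the BioPrime system and the RNA data were calibrated with the genomic DNA array. Neither the summarizing software nor the threshold is stated in the labels or headers. No read depth applies, and the number of arrays limits the precision. Levels were log2(intensity) for DNA and the mean of log2(intensity + 28.2) for RNA, with the offset set to the median RNA value divided by 10. Classes came from symbols of the platform annotation, in which 15 of 15 plastid ribosomal probe sets had gene IDs beside those of other plastid genes. Symbols were not updated. Probe sets with several different genes entered no single-gene class and no family. Their symbols served only to set apart the 12 that list a mitochondrial gene beside a second gene. The rule named organelle genes by role, the 15 highest and 10 lowest nuclear probe sets, the 10 widest rank differences each way, and families of at least 5 genes. Where these carried only locus codes, the leading genes with a symbol were added after their values were seen. The members and lists were chosen with earlier results of these data known. No test was run. Functions were tested on simulated data. Python 3.11.15, numpy, pandas and matplotlib were used.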

Additional observations from a re-analysis of the deposited data

Results flagged for a closer look

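A control probe set outside the classes described, for Arabidopsis 25S ribosomal RNA, had an intensity of 159306 on the genomic DNA array, at the level of the plastid genes and far above the highest Bacillus control at 385.8. It was 126 times its mean on the RNA arrays, 1267, which ran from 145.9 in CH replicate 2 to 2651.7 in CH replicate 1. The controls commonly added at hybridization were themselves 16 to 56.6 times their RNA mean. The 25S probe set was picked out because control probe sets enter no comparison of the report. A further reason was that it lay far above the controls without a plant target. Ribosomal RNA genes stand in long tandem arrays in plant nuclei. The control probe set for 5S ribosomal RNA had 446.1 on the DNA array and 36.6 on the RNA arrays, near the median of all probe sets on DNA. The cause of either level was not tested.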

How the results depend on the processing

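Of 56 values recomputed under other settings, 34 stayed within the spread used to judge them, 22 moved and 0 changed sign. That spread was the SD over the 6 RNA arrays for values that use RNA, 0.1 log2 for class differences and, only as a yardstick, a binomial interval for the share. Every value with an RNA array left out stayed. That was nearly fixed in advance, since such a value averages the remaining arrays while the spread is that of single arrays. All values that moved came from the other settings. Leaving out each RNA array gave a DNA to RNA correlation from 0.315 to 0.323 (reported 0.319), a gap in RNA between probe sets above and below the median DNA level from 0.944 to 0.988 (0.963), and a difference between highest and lowest group from 1.73 to 1.83 (1.75). The correlation was 0.293 in nuclear probe sets and 0.295 without probe sets of RNA level under the median. That gap was 1.08 with no offset, 0.744 with 4 times the offset and 0.51 without those dim in RNA. The difference between groups was 1.97, 1.34 and 1.05 in these settings and 1.56 in nuclear probe sets.

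The plastid minus nuclear median, 7.68, was 7.57 with the offset added to DNA, 7.52 against all probe sets not of an organelle and 7.91 with those of a repeated symbol. The mitochondrial difference, 4.84, was 4.74 with that offset, 5.09 with 1 probe set per gene and with the mean per gene, 4.68 with plain probe sets, 3.87 with means, 4.69 against all probe sets not of an organelle, 5.09 without nad1 and 4.96 with those listing a second gene. The share at or below the Bacillus level, 22.99%, was 53.2% with the highest control and 20.5% over all probe sets not of an organelle. Leaving out nad1 and adding probe sets of several genes were chosen after the data were seen. The causes were not tested. With 1 DNA array nothing here shows how far its levels would repeat. No paired analysis was possible because the DNA array is a single sample with no partner, and no value here comes from a test between the numbered RNA replicates.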

Other observations

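Other Arabidopsis control probe sets gave a further view of probe sets named for one transcript. The older ubiquitin controls had intensities of 3637 at the 3′ end, 1674 in the middle and 2703 at the 5′ end on the DNA array, and the newer ones 3306 at the 3′ end and 4397 at the 5′ end. The older GAPDH controls had 194.9 at the 3′ end, 551.3 in the middle and 261.0 at the 5′ end on the DNA array, while the middle one averaged 23877 on the RNA arrays. The newer GAPDH controls had 1616 at the 3′ end and 746.6 at the 5′ end on the DNA array. The actin controls ranged from 276.3 to 1902 on the DNA array. Controls named for one transcript thus differed on DNA, as did probe sets of one nuclear gene. Within one series the widest fold difference was in the older GAPDH controls, 194.9 against 551.3.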
